A study of Homo sapiens with 3 samples.

Results

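The locus described here is the stretch of human chromosome 14 from 67.8 to 69 Mb (build hg38), which holds RAD51B and ZFP36L1, and its members are all ARID1B peaks inside it. There were 18 of the 3612 peaks of both lists, 10 of 1792 in replicate 1 and 8 of 1820 in replicate 2. The peaks came from chromatin immunoprecipitation followed by sequencing (ChIP-seq) of ARID1B in HEK293FRT cells, a line made from HEK293 human embryonic kidney cells, with no treatment and no change of genotype given in the labels. The series held 2 ARID1B replicates and 1 input sample, which was not analysed here. No label ties the replicates to separate cultures, and their differences may therefore be technical only. The locus was chosen by the positions of the peaks, because regions found in both replicates lie close together in it, so their number and spacing are given as a description.

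ARID1B is an AT-rich interaction domain protein that binds DNA and belongs to the BAF (SWI/SNF) complexes, which use ATP to slide and evict nucleosomes, and these complexes occupy enhancers as well as promoters. RAD51B forms a complex with RAD51C, RAD51D and XRCC2 that acts in the repair of DNA breaks by homologous recombination. ZFP36L1 is a zinc-finger protein of the tristetraprolin family, which binds AU-rich elements of messenger RNAs and recruits the CCR4-NOT deadenylase, so that the message is degraded.

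RAD51B is a long gene of 863.3 kb (chr14:67819779-68683096, forward strand), and ZFP36L1 is a short one of 8.59 kb (chr14:68787655-68796243, reverse strand). They are transcribed towards each other, and their transcription ends lie 104.6 kb apart. Of the 10 replicate 1 peaks all 10 lay inside RAD51B, and of the 8 replicate 2 peaks 7 did. The remaining replicate 2 peak lay inside ZFP36L1, at an internal transcription start. None of the 18 lay within 1000 bp of an annotated end of either gene. The annotation used has no exons, so exonic and intronic positions were not separated.

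**Figure D1:**
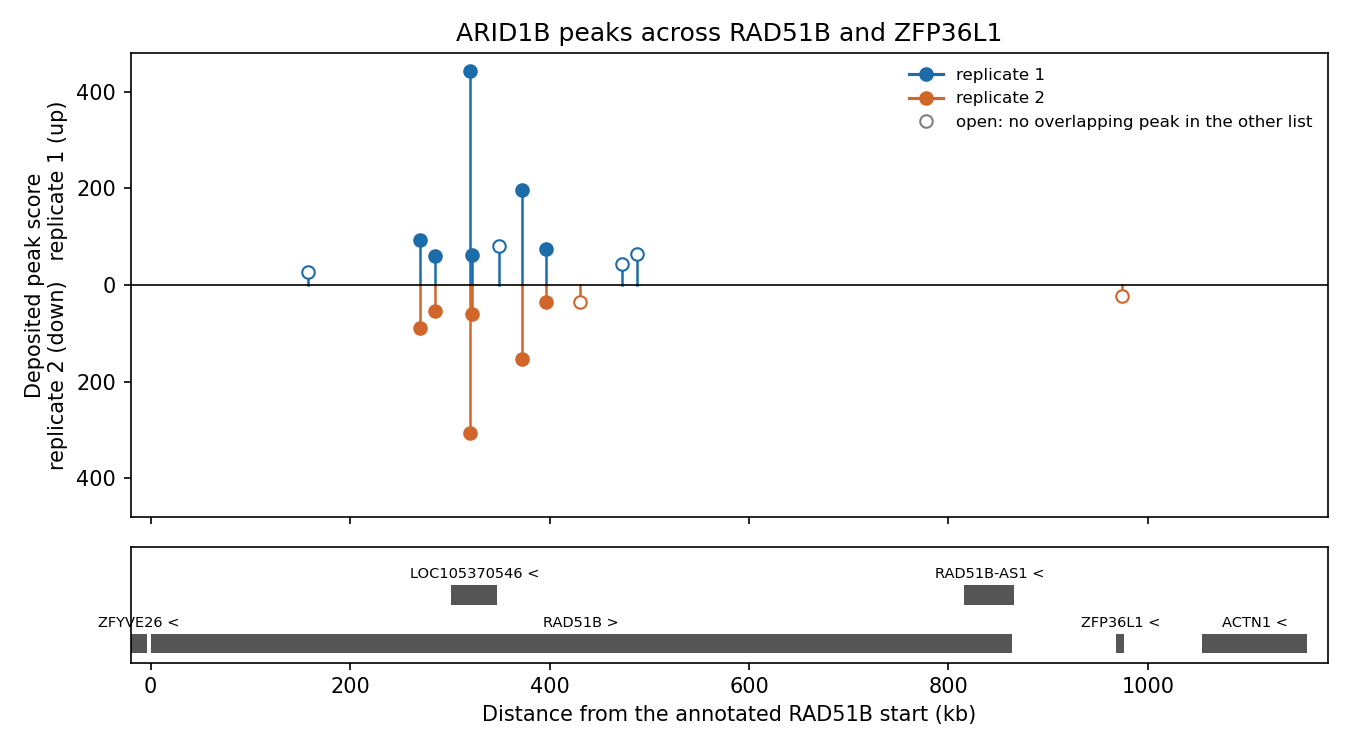
ARID1B peaks by distance from the annotated RAD51B start (x axis, kb), with the deposited score of each peak (y axis, no unit) drawn upwards for replicate 1 and downwards for replicate 2. Open circles have no overlapping peak in the other list; bars below are genes, with > for the forward and < for the reverse strand. The filled peaks stand between 269.7 and 396.6 kb, and the peak at ZFP36L1 stands alone at 973.6 kb.

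The ZFP36L1 peak is shown first with its sequence, because it is the peak of the locus that coincides with a transcription start. It lay at chr14:68793315-68793511 in replicate 2, with a score of 23 (rank 1755 of 1820) and a width of 197 bp, the smallest width in that list, shared by 67 of its peaks. No replicate 1 peak overlapped it. RefSeq promoter entries (GRCh38.p14) give ZFP36L1 an outer start at 68796243, which is the end of the gene itself, and an inner start at 68793416. The centre of the peak was 3 bp from the inner start, and its edge was 2.73 kb from the outer start and 5.66 kb from the transcription end. The 250 bases before each start are printed from 5′ to 3′ on the reverse strand, the inner at chr14:68793417-68793666 and the outer at chr14:68796244-68796493. Capitals mark the 95 bases under the peak; its other 102 bases, from the start on, are not printed.
ZFP36L1 inner start: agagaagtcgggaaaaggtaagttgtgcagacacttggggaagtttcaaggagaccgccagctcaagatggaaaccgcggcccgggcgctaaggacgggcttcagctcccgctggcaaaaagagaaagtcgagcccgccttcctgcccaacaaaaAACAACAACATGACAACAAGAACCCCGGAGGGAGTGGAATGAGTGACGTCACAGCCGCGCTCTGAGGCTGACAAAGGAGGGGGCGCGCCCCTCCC
ZFP36L1 outer start: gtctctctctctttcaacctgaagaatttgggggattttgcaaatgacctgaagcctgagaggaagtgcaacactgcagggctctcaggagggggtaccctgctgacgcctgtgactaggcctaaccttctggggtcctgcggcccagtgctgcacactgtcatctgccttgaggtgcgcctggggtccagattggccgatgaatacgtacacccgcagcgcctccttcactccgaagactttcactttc

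The inner window held 16 CpG dinucleotides and 58.4% G and C, and the outer window 8 and 56.4%, where the median G and C content over 35116 such windows was 58%. Short motifs were searched on both strands, a choice made after the sequence was seen. The letters TGACGTCA, known as the cyclic AMP response element to which CREB and ATF factors bind, stood in the capitals of the inner window at chr14:68793461-68793468, 51.5 bp from the peak centre. They occurred in 1.65% of the 35116 windows, a share counted over all 250 bases of each and not over a shorter part under a peak. The AP-1 letters TGANTCA (6.57% of windows) and the GC box GGGCGG (42.6%) were in neither ZFP36L1 window, and CCAAT (32%) was only in the outer one, on the opposite strand. No match of one motif overlapped a match of another. These matches describe the letters of the windows and do not show that a factor was bound.

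**Figure D2:**
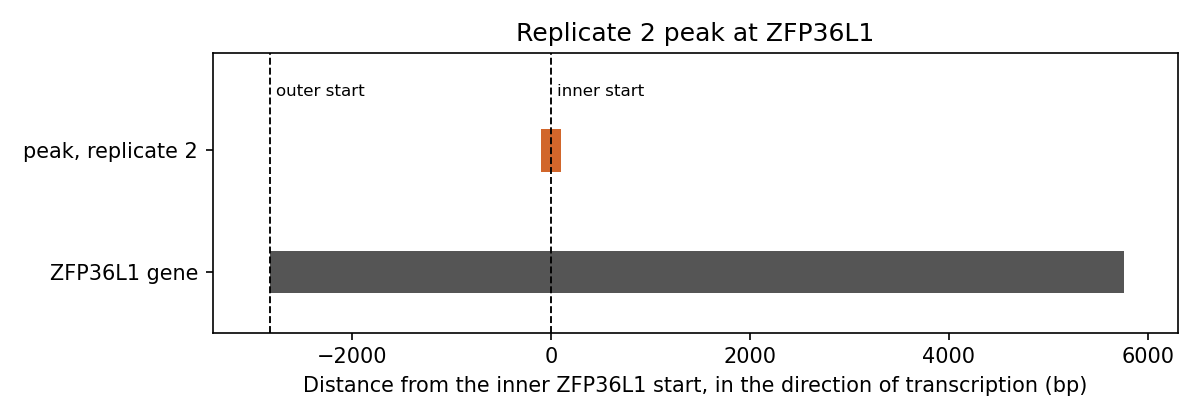
The replicate 2 peak and the ZFP36L1 gene, by distance from the inner ZFP36L1 start in the direction of transcription (x axis, bp). Dashed lines mark the starts of the RefSeq promoter entries; the 197 bp peak straddles the inner start, and the outer start lies 2.83 kb before it.

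Peaks found in a single replicate were set against promoters in general. On the chromosomes of the promoter table, 94 of 480 peaks found in replicate 2 alone (19.6%, exact Clopper-Pearson 95% interval 16.1 to 23.4) overlapped a window from 250 bases before to 50 bases after a RefSeq start. Of 456 peaks found in replicate 1 alone, 4 did (0.877%, 0.24 to 2.23), and of 1265 shared peaks of replicate 2, 131 did (10.4%, 8.73 to 12.2). A centre within 50 bp of a start, as at ZFP36L1, was found for 13 of the 480 (2.71%). It was found for 1 of the 456 (0.219%) and for 10 of the 1265 (0.791%). The part that this imbalance between the replicates has in the ZFP36L1 peak was not tested. The intervals cover counting error only, and with 1 library per replicate they hold no spread between libraries.

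Inside RAD51B, 6 regions had a peak in both replicates, counting peaks that overlapped by at least 1 bp. All 6 shared regions of the locus thus lay inside a protein-coding gene, as did 51.9% of all 1313 shared regions. The window also holds stretches between genes, but it was chosen with the positions of these regions known. This count is therefore a description only. They spanned 127.2 kb (chr14:68089276-68216509), which is 14.7% of the gene, and together covered 2815 bp. The first began 269.5 kb after the annotated start of the gene and the last ended 466.6 kb before its end, so the centres of all 6 lay between 31.2% and 45.9% of its length. Numbered in the direction of RAD51B transcription, they are described below by score, rank in each list and position. The score is a whole number given by the authors on an unstated scale, with a median of 74 in replicate 1 (range 10 to 1537) and 75 in replicate 2 (11 to 1642).

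Region 3 had the highest scores of the locus. Its peaks lay at chr14:68140214-68140710 in replicate 1, with a score of 443 (rank 22 of 1792), and at chr14:68140138-68140794 in replicate 2, with a score of 306 (rank 76 of 1820). The replicate 1 peak was contained whole in the replicate 2 peak, and the centres were 4 bp apart. Region 4 followed it closely, with scores of 62 and 61, at chr14:68141736-68142000 and chr14:68141622-68141952. The gap between both peaks was 1025 bp in replicate 1 and 827 bp in replicate 2, so each list held a strong and a weak peak there in the same order. Centres of neighbouring shared regions less than 2 kb apart made up 2.41% of the 1288 gaps between neighbours in the genome (31 gaps).

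Regions 3 and 4 also lay inside LOC105370546, a long non-coding RNA gene (chr14:68121248-68167237) that is read on the reverse strand within RAD51B. They were 26.8 and 25.4 kb from the start of that gene. Over the annotation, 35 of 18010 long non-coding RNA genes (0.194%) held at least 2 shared regions. LOC105370546 is among them through the choice of the locus for its close regions, and gene length was not taken into account. A peak of replicate 1 alone with a score of 80 (chr14:68168558-68168794) lay 1.32 kb before the start of LOC105370546, just beyond the 1000 bp used for gene ends.

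Region 5 was next by score, with 197 in replicate 1 (rank 195, chr14:68191373-68192123) and 153 in replicate 2 (rank 335, chr14:68191614-68192082). The replicate 1 peak was 751 bp wide, above or equal to 99.2% of its list, and the replicate 2 peak of 469 bp lay within it. Their centres were 100 bp apart, the largest such distance of the 6 pairs. In both lists the order by score was thus region 3, region 5 and then region 1, with scores of 93 and 90 at chr14:68089381-68089764 and chr14:68089276-68089688. These 3 were the regions that scored at or above the list median in both replicates.

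Regions 2 and 6 were weaker. Region 2 scored 60 in replicate 1 (chr14:68104469-68104796) and 54 in replicate 2 (chr14:68104526-68104772), both below the list medians. Region 6 lay at chr14:68216299-68216500 with a score of 74 in replicate 1, which is that list's median, and at chr14:68216302-68216509 with 36 in replicate 2. Its peaks shared 199 bp (95.7% of the wider peak), the largest such share of the 6 pairs, and their scores had the lowest ratio.

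In each of the 6 pairs the replicate 2 score was the lower one. The ratio of the replicate 2 to the replicate 1 score was 0.984 for region 4, 0.968 for region 1 and 0.900 for region 2. It was 0.777 for region 5, 0.691 for region 3 and 0.486 for region 6. The median of these ratios was 0.838. Their SD, taken around their mean and not the median, was 0.191. The 6 pairs share a locus and are not replicates. Over all 1305 pairs that matched one to one, the median ratio was 1.02 with quartiles of 0.744 and 1.446, and 47.7% of pairs (622) were lower in replicate 2. The median of the locus lay between these quartiles, which describe single pairs and not medians of 6 pairs. Of all pairs, 6.97% had a ratio as low as that of region 6. As score percentiles of each list, region 3 stood at 98.8 and 95.9, region 5 at 89.2 and 81.6, region 1 at 62.5 and 61.4, region 4 at 39.8 and 38.5, region 2 at 39.3 and 31, and region 6 at 50.8 and 12.5. With 1 library per replicate the difference has no test.

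**Figure D3:**
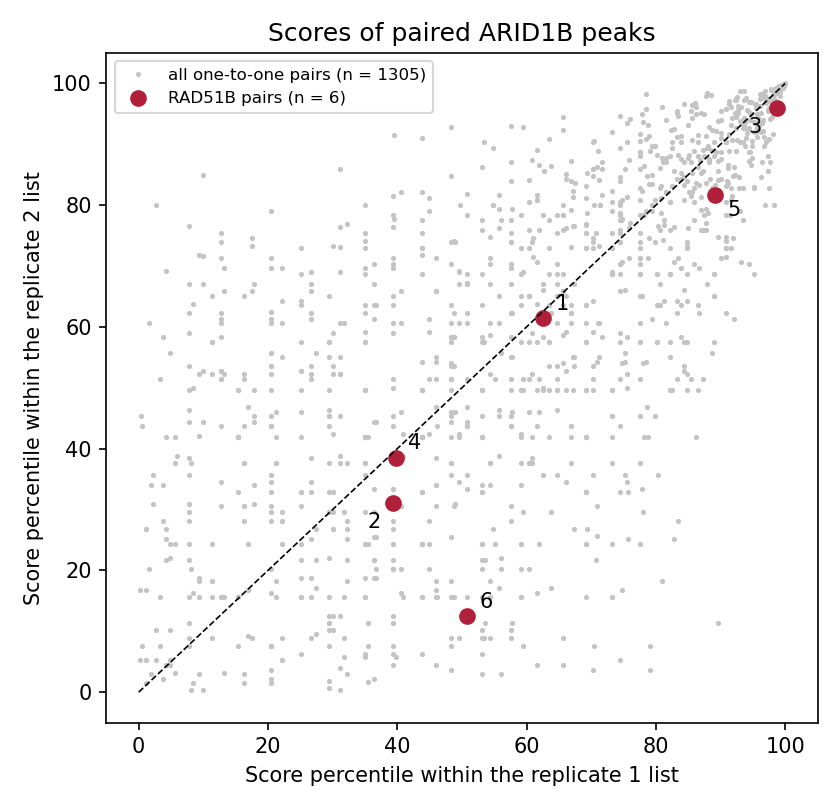
Score percentile of each paired peak within the replicate 1 list (x axis) and within the replicate 2 list (y axis), for all 1305 one-to-one pairs (grey) and the 6 RAD51B pairs (red, numbered in the direction of transcription). The dashed line marks equal percentiles; all 6 lie below it, region 6 farthest.

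In position, the median distance between the centres was 48.8 bp, against 24 bp over all 1305 pairs, and the overlap took up a median of 74.9% of the wider peak, against 81.6%. The lowest overlap was 62.5%, at region 5. All 6 pairs therefore also passed 50% reciprocal overlap.

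The other 6 peaks were found in 1 replicate. Of the replicate 1 peaks 6 of 10 were shared (60%, exact Clopper-Pearson 95% interval 26.2 to 87.8), against 73.5% of the whole list, and of the replicate 2 peaks 6 of 8 (75%, 34.9 to 96.8), against 72.4%. Both intervals hold the share of the whole list, but they are so wide that this tells little about agreement. The intervals cover counting error only, and these shares are not independent of how the locus was chosen.

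Of the 4 peaks of replicate 1 alone, the one before LOC105370546 lay between regions 4 and 5 and scored above the list median (80, rank 805). Among replicate 1 peaks scoring 70 to 90, 77.5% (176 of 227) had a partner. In the ranges that hold the other peaks of replicate 1 alone, the share was 47.3% (129 of 273) at scores of 20 to 40. It was 60.3% (346 of 574) at scores of 40 to 69. The peak nearest to the RAD51B start, at chr14:67977695-67977916, had a score of 27 (rank 1705). It stood 157.9 kb after the annotated start of the gene.
The remaining replicate 1 peaks lay beyond region 6, at chr14:68291876-68292150 with a score of 44 and at chr14:68307182-68307682 with a score of 64. The latter was wide for its score (91.8% of the list were as narrow or narrower), where the median width of the 208 replicate 1 peaks scoring 60 to 69 was 261 bp and 4 of them, itself included, were at least as wide.

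Inside RAD51B replicate 2 added 1 peak of its own, at chr14:68249841-68250047, with a score of 36 (rank 1594) and a width of 207 bp, between region 6 and the last replicate 1 peaks. Among replicate 2 peaks scoring 20 to 40, the range that holds this peak and that of ZFP36L1, 47.8% (132 of 276) had a partner. With all peaks counted, the distance from the first to the last peak inside RAD51B was 330.0 kb. Both of these outermost peaks were of replicate 1 alone. Both lists were empty over the first 157.9 kb of the gene and over the last 375.4 kb, which is 43.5% of its length and overlaps the antisense gene RAD51B-AS1. The starts that the promoter table gives for RAD51B (67823541 and 67823592) were 154.1 kb from the nearest peak.

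The centres of neighbouring shared regions were 15.1 kb apart from region 1 to 2, 35.8 kb from 2 to 3, 1.34 kb from 3 to 4, 49.9 kb from 4 to 5 and 24.7 kb from 5 to 6. The median of these 5 gaps was 24.7 kb, where it was 576.1 kb over the 67 gaps of chromosome 14 and 821.1 kb over the 1288 gaps of the genome, of which 19.4% were under 100 kb. The locus was chosen for this density. Before its first peak, the nearest peak was 1962.3 kb away in replicate 1 (score 51, chr14:66015111-66015354) and 3390.1 kb away in replicate 2 (score 67, chr14:64698962-64699169). After its last peak, it was 825.0 kb away in replicate 1 (score 53, chr14:69132646-69132843, inside DCAF5) and 1086.5 kb away in replicate 2 (score 352, chr14:69880049-69880492). The neighbouring genes ZFYVE26, which starts 3.19 kb from RAD51B and is read away from it, and ACTN1, which encodes the actin cross-linker alpha-actinin and lies 77.9 kb beyond ZFP36L1, held no peak of either list.

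Between the last shared region and the nearer end of ZFP36L1 lay 571.1 kb. In replicate 2 the last RAD51B peak and the ZFP36L1 peak were 543.3 kb apart. Peak lists hold no contacts between regions, so they do not tell which gene, if any, the RAD51B regions act on.

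RAD51B was the sixth of 19866 protein-coding genes by the number of shared regions inside, ties being ordered by summed replicate 1 score. By summed replicate 2 score, RAD51B (700) stood below the other genes with 6 regions, SLC25A21 (1520), AUTS2 (799) and FRMPD4 (712). At least 6 regions lay inside 7 genes (0.0352%). Just above RAD51B stood NKAIN2, a membrane protein gene, with 7 regions in 1021.8 kb, SLC25A21, a mitochondrial carrier gene, with 6 in 494.7 kb and FRMPD4, a synaptic scaffold gene, with 6 in 902.1 kb. Just below stood AUTS2, a neurodevelopmental gene, with 6 in 1195.0 kb, PDE4D, a cyclic AMP phosphodiesterase gene, with 5 in 1553.1 kb and FAT3, an atypical cadherin gene, with 4 in 671.7 kb. Per 100 kb of gene, RAD51B held 0.695 regions, close to NKAIN2 (0.685) and FRMPD4 (0.665) and fewer than SLC25A21 (1.21). Of 102 protein-coding genes at least as long as RAD51B, 30 (29.4%) held a shared region, and 4 held at least 6, RAD51B included.

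**Figure D4:**
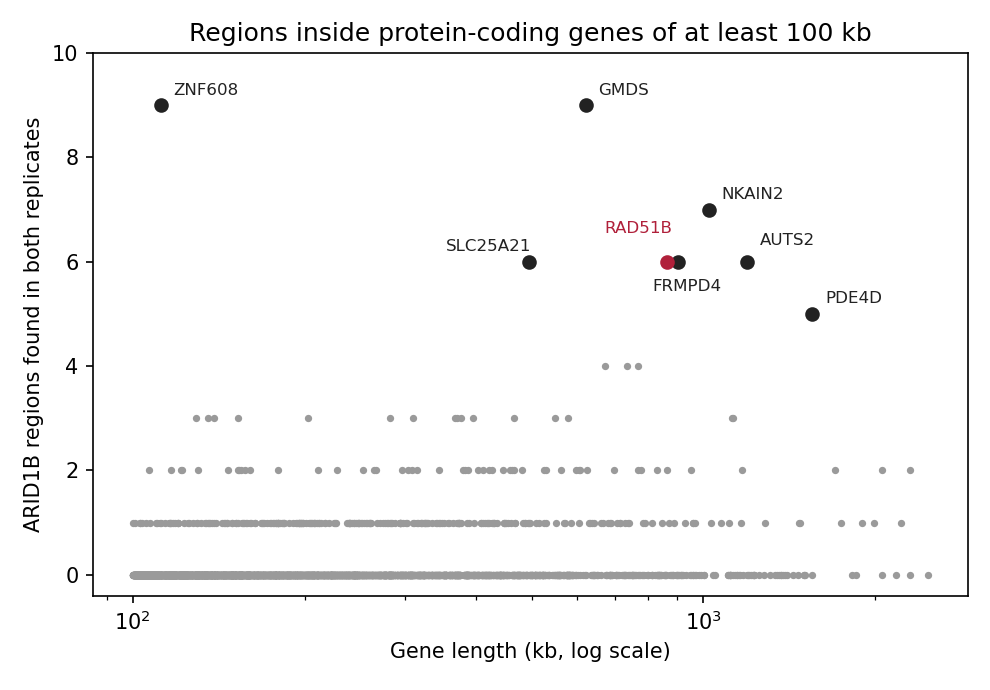
Number of ARID1B regions found in both replicates inside each protein-coding gene of at least 100 kb (y axis) by gene length (x axis, kb, log scale). RAD51B (red) holds 6 regions in 863.3 kb; the genes with 5 or more regions are named.

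The rest of both pathways was then read from gene lists. Of 30 genes of homologous recombination (among them RAD51B and its partners, end-resection nucleases and replication protein A), 2 had a shared region inside or within 1000 bp (6.67%), where 3.26% of all protein-coding genes had one. These were RAD51B itself, whose count the choice of the locus fixes, and XRCC3, which acts in the same repair pathway. Without RAD51B it was 1 of 29 genes (3.45%), near the share of all protein-coding genes. The XRCC3 region (chr14:103715455-103715744) began 4 bp from the XRCC3 start, with scores of 48 and 96, and lay within 1000 bp of ZFYVE21. RAD51B and XRCC3 thus differed in placement, with regions 265.7 kb or more from the listed starts at the former and a region beside the start at the latter.

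Of 31 genes of AU-rich message decay (the ZFP36 family, other AU-rich element binding proteins, deadenylases and decapping factors), 3 had a shared region (9.68%, against the same 3.26%). KHSRP encodes an RNA-binding protein that promotes decay of AU-rich messages. It had scores of 369 and 494 at a region that covers its start (chr19:6424807-6425638) and lies within 1000 bp of SLC25A41. ELAVL2, a neuronal RNA-binding protein gene, had 1 region 56 bp from a start (chr9:23826296-23826515, scores 56 and 73) and another 103.3 kb from any listed start (chr9:23717542-23717856, scores 56 and 28). CNOT3, a CCR4-NOT subunit gene, had a region 103 bp from its start (chr19:54137292-54137659, scores 55 and 21). ZFP36L1 was the one member with a peak in a single list, and its family members ZFP36 and ZFP36L2 had none in either. Gene length and the small size of the lists were not corrected for, so these counts describe the lists and show no enrichment.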

How the data were processed

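ARID1B ChIP-seq peaks of 2 replicates were read; the input served no comparison here. The submitters' processing notes list MACS2 2.1.2, Bowtie2 2.3.4.1 and bcl2fastq 2.20.0.422, with build hg38. No source used here gives thresholds, duplicate handling or whether the input was the control. The authors deposited 1 peak list per replicate with a whole-number score per peak, of unstated scale, used here to rank peaks within a list and for the ratio of paired peaks. The lists hold no counts, so depth is unknown.

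Starts were converted to count from 1. Peaks overlapping by at least 1 bp were joined into regions. Genes came from a RefSeq table of GRCh38.p14 (58961 kept, 718 on unlocalized or alternate sequences left out), and starts, strands and sequences from RefSeq promoter entries. Members and gene lists were chosen with earlier results of these data known, and 1 listed gene is not reported here. Genes were named by rule: those in the locus with a peak, its flanking genes, list members with a region, and the 3 genes ranked above and below RAD51B; RAD51B-AS1, ZFP36, ZFP36L2, and genes sharing a region with a list member were named after their values were seen. No significance test was run. Overlap and ratios were tested on simulated data. Python 3.11 and scipy gave exact Clopper-Pearson intervals.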

Additional observations from a re-analysis of the deposited data

How the results depend on the processing

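With 50% reciprocal overlap, or centres within 200 bp, the 6 shared regions, their placement, the spacing and the score ratio kept their values. When peaks below the median score of their list were left out, 3 peaks of each replicate were shared, 3 regions remained, all inside RAD51B, the median spacing was 51.1 kb, and 1 member of each gene list had a region. Taking the full list of a single replicate in place of the shared regions gave 8 to 10 regions in the locus, 7 to 10 inside RAD51B, with a median spacing of 24.7 to 33.5 kb, 2 recombination genes and 3 to 4 decay genes. No region lay at an annotated ZFP36L1 end with windows of 500 or 5000 bp; with all replicate 2 peaks there was 1 within 5000 bp, and 1 within 1000 bp of a RefSeq start, both settings chosen after the data were seen. No paired analysis was possible because peaks were read for a single group, the ARID1B replicates, with no second group to pair. Depth is unknown, so a missing peak in 1 list does not show absence of ARID1B there.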
